A study of Homo sapiens with 4 samples.

Results

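Semaphorins are a family of secreted and membrane-bound guidance proteins, and 5 of the 1176 genes in the deposited tables bear a symbol that begins with SEMA. They are SEMA3A, SEMA3C, SEMA4A, SEMA5B and SEMA7A, chosen by symbol alone after the Ensembl gene IDs were matched to symbols. RNA sequencing was done on RCC4, a human cell line from clear cell kidney cancer that has lost VHL function and therefore keeps hypoxia-inducible factors active. The 2 shControl libraries came from cells infected with a lentivirus carrying a control hairpin (genotype WT in the labels) and the 2 shMIRE libraries from cells infected with a lentivirus carrying a hairpin against MIRE (genotype MIRE knockdown), all taken on day 3. The comparison asks which transcripts differ when MIRE, a name that RefSeq gives as a synonym of the long non-coding RNA gene SAP30-DT, is depleted.

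The level of MIRE was not analysed here, so the depletion itself was not checked. The labels do not say how many hairpins were used against MIRE, whether the cells were 1 clone, or whether replicates were infected separately, so the spread behind each p-value may be purely technical. The deposited values are whole numbers that look like read counts already scaled between libraries and rounded, and their listed sums ran from 2002994 to 2514039 per library. The authors' tables end at about a 2-fold difference between the group means, so a gene in them already differs by about that much, and its p-value is no independent evidence of a change. Depth is unknown, since the tables cover part of each library. Of 9 markers of renal epithelium and clear cell carcinoma fixed as a list, 0 were listed, so the labelled epithelial cell type could not be checked.

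A semaphorin carries a large sema domain through which it binds plexins, receptors whose cytoplasmic part acts on small GTPases and so on the cytoskeleton and on integrin adhesion. Class 3 members are secreted and most need a neuropilin as a co-receptor. Class 4 members span the membrane and carry an immunoglobulin domain, class 5 members span it and carry thrombospondin repeats, and class 7 is held by a glycolipid anchor. First described in axon guidance, the family also acts in blood vessel growth, immune cells, kidney development and tumour cell migration.

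In shMIRE cells 4 of the 5 listed semaphorins were higher and 1 was lower. SEMA3C rose 2.83-fold, SEMA7A 3.21-fold, SEMA3A 3.43-fold and SEMA4A 5.80-fold, the last from a value of 10, and SEMA5B fell 2.41-fold. With limma all 5 passed at an adjusted p under 0.05, 4 up and 1 down. That count has little weight of its own, since 38.5% of all listed genes were called higher and 59.0% lower. In each of the 5 genes the values of the groups did not overlap, which was also so for 99.0% of the listed genes. The median log2 fold change was 1.68 over the 5 semaphorins and -1.16 over all listed genes. Since the tables leave a gap around 0, the sign of such a median only restates which direction most of the genes had. By class, 2 of the 7 human class 3 genes were listed, 1 of 6 in class 4, 1 of 2 in class 5, 0 of 4 in class 6 and the 1 gene of class 7. Members outside the tables were not analysed here.

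**Figure D1:**
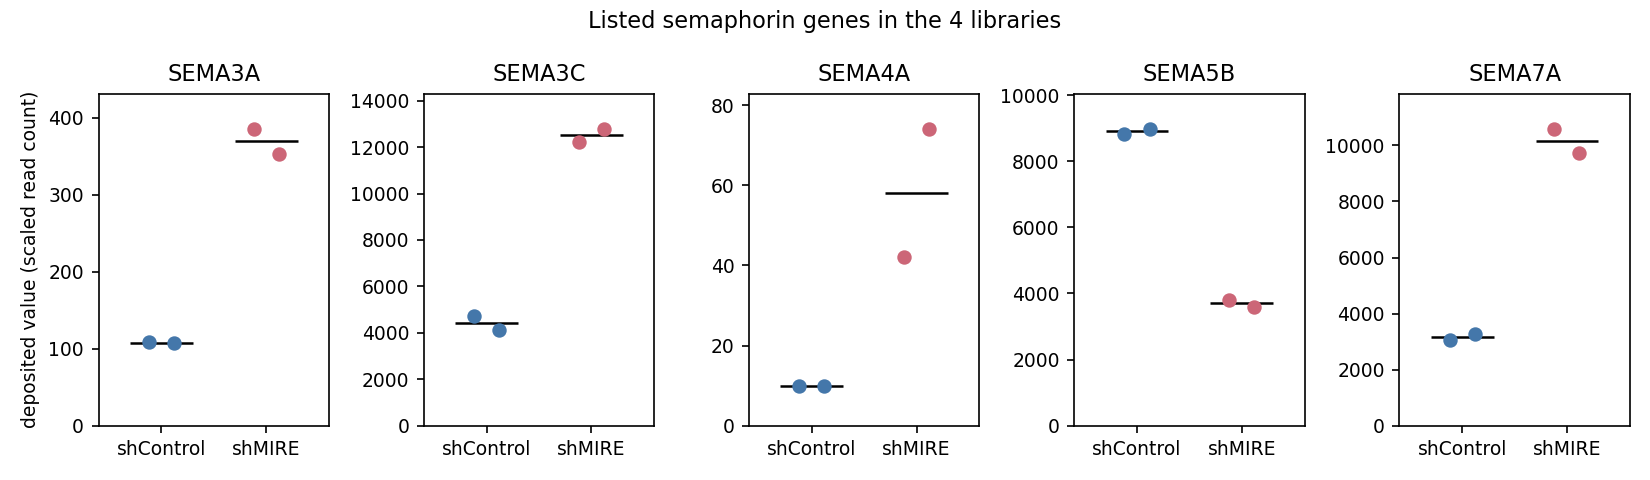
Deposited value (a scaled read count, linear axis from 0) of each listed semaphorin in the 2 shControl and 2 shMIRE libraries, where points are libraries and bars are group means. SEMA5B is the 1 gene whose shMIRE points lie below its shControl points, and SEMA4A has the widest gap between shMIRE points relative to their mean (42 and 74).

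Of the secreted class 3 members SEMA3C had the higher level per kb of exon in shControl (705 ± 69.6, beside 11.5 ± 0.08 for SEMA3A; SD, n = 2). SEMA3C (ENSG00000075223) lies on chromosome 7 from 80742538 to 80922359 on the minus strand of GRCh38, and encodes a ligand of neuropilins and plexins known for its part in heart outflow tract development and in tumour cell invasion. It stood at 4727 and 4110 in shControl replicates 1 and 2 and at 12223 and 12775 in shMIRE replicates 1 and 2. Both shMIRE libraries were higher than both shControl libraries, and the ratio of any shMIRE to any shControl library lay between 2.59 and 3.11. The group means were 4419 ± 436 and 12499 ± 390 (SD, n = 2), 2.83-fold apart. The log2 fold change was 1.50 with a standard error of 0.09 (limma adjusted p = 1.4e-04).

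SEMA3A (ENSG00000075213, chromosome 7, 83955777 to 84492724, minus strand) encodes the founding repulsive ligand of axons, which binds neuropilin-1 together with A-type plexins and also restrains the growth of blood vessels. The shControl libraries held 108 and 107, the shMIRE libraries 385 and 353. The shControl libraries were nearly equal and both shMIRE libraries were higher, with library ratios between 3.27 and 3.60. The means were 107.5 ± 0.71 and 369 ± 22.6 (SD, n = 2), and the log2 fold change was 1.77 with a standard error of 0.18 (limma adjusted p = 6.2e-04). Both class 3 genes sit on chromosome 7 and 0 other listed genes lay within 1000000 bp of either.

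SEMA7A is the glycolipid-anchored member and also carries the John Milton Hagen blood group antigen. Its known receptors are plexin C1 and integrins with the beta 1 subunit, through which it acts on monocytes and on cell spreading. SEMA7A (ENSG00000138623, chromosome 15, 74409289 to 74433958, minus strand) had values of 3070 and 3266 in shControl, against 10582 and 9738 in shMIRE. Every shMIRE library was at least 2.98 times and at most 3.45 times a shControl library. The means were 3168 ± 139 and 10160 ± 597 (SD, n = 2), 3.21-fold apart, with a log2 fold change of 1.68 and a standard error of 0.08 (limma adjusted p = 1.1e-04).

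SEMA7A was also the semaphorin with the most listed genes close by, 4, beside 1 each for SEMA4A and SEMA5B. All annotated genes near each member were not counted, so local gene density is not taken into account. Within 1000000 bp, ARID3B, 107219 bp away, rose by 1.18 on the log2 scale, and STRA6, a retinol transporter gene 197022 bp away, rose by 2.61. CYP1A1, a cytochrome P450 gene 285584 bp away, rose by 1.85 (a call lost without shControl replicate 2 and without shMIRE replicate 1 or 2, limma adjusted p = 0.0758, 0.0704 and 0.0923), whereas EDC3, an mRNA decapping factor gene 196600 bp away, fell by 1.13. Neighbours of SEMA7A therefore moved both ways. The listed neighbour of SEMA5B, MYLK, a myosin light chain kinase gene 581444 bp away, rose by 1.21 on the log2 scale (limma adjusted p = 1.2e-04). That of SEMA4A, SH2D2A, an adaptor gene of T cells 628491 bp away, had values of 3 and 22 in shControl and a listed 0 in each shMIRE library (limma adjusted p = 0.0184). Its call was lost with quantile normalisation (0.242) and without shMIRE replicate 1 or 2 (0.175 and 0.171).

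SEMA4A (ENSG00000196189, chromosome 1, 156147366 to 156177752, plus strand) encodes a transmembrane ligand known from T cell activation and from the retina. It was the lowest of the 5 per kb of exon, and its deposited value was 10 in each shControl library and 42 and 74 in the shMIRE libraries. Both shMIRE values exceeded the shControl values, but they differed from each other 1.76-fold, so library ratios ran from 4.20 to 7.40. The means were 10 and 58.0 ± 22.6 (SD, n = 2, with no spread in shControl), and the log2 fold change was 2.37 with a standard error of 0.43 (limma adjusted p = 0.00462). The call did not hold without shControl replicate 1 or shControl replicate 2 (limma adjusted p = 0.0679 and 0.0695), and the log2 fold change was 3.90 with quantile normalisation.

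SEMA5B (ENSG00000082684, chromosome 3, 122909082 to 123028605, minus strand) was the 1 listed semaphorin that fell. It encodes a transmembrane protein with thrombospondin repeats that inhibits neurite growth in the mouse retina, and it has been described as overexpressed in renal cell carcinoma. Its values were 8829 and 8972 in shControl, against 3797 and 3602 in shMIRE. Replicates were close in both groups, and each shControl library was 2.33 to 2.49 times each shMIRE library. The means were 8901 ± 101 and 3700 ± 138 (SD, n = 2), and the log2 fold change was -1.27 with a standard error of 0.06 (limma adjusted p = 1.1e-04). In bulk RNA, fewer cells with a transcript and less of it per cell cannot be told apart, here and for the other members.

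Placed among all listed genes, the semaphorins were not at the extremes of change. By mean value over all libraries, SEMA3C was at rank 54 of 1176, SEMA7A at 75 and SEMA5B at 78, all near the top. SEMA3A was at 650 and SEMA4A at 967. Among the 463 listed genes that were higher in shMIRE, ordered by log2 fold change, SEMA4A was at rank 68, SEMA3A at 138, SEMA7A at 153 and SEMA3C at 193. Among the 713 lower genes, SEMA5B was at rank 507, so most lower genes had a larger fall.

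**Figure D2:**
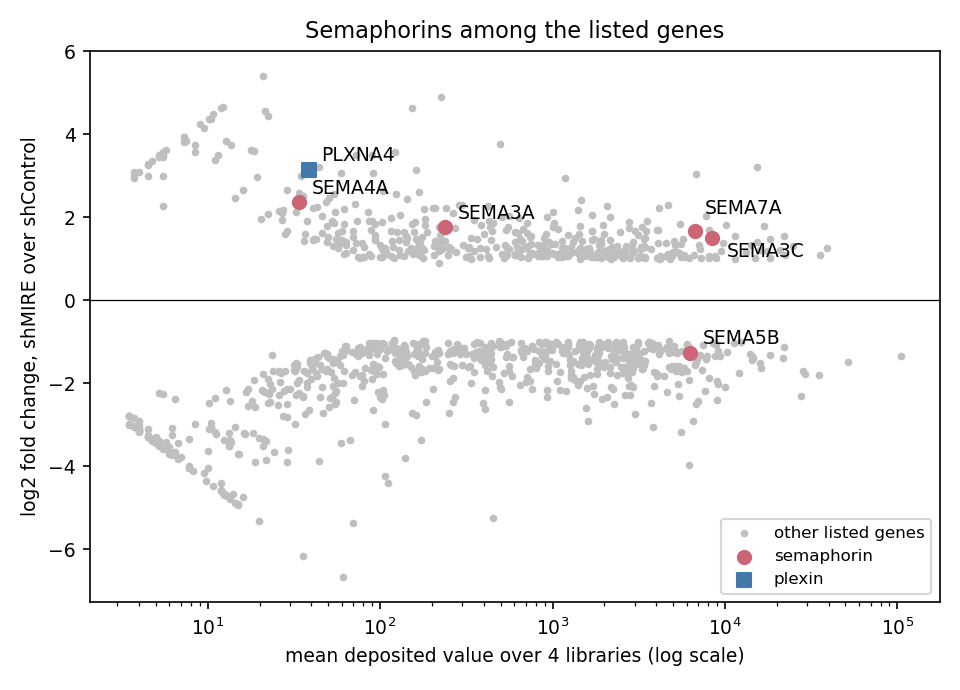
Log2 fold change (shMIRE over shControl) of all 1176 listed genes against their mean deposited value over 4 libraries (log axis), with semaphorins as circles and the listed plexin as a square. The band without points around 0 reflects the 2-fold limit of the tables, SEMA3C, SEMA7A and SEMA5B lie among the genes with high values, and SEMA4A and PLXNA4 lie among those with low values.

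**Figure D3:**
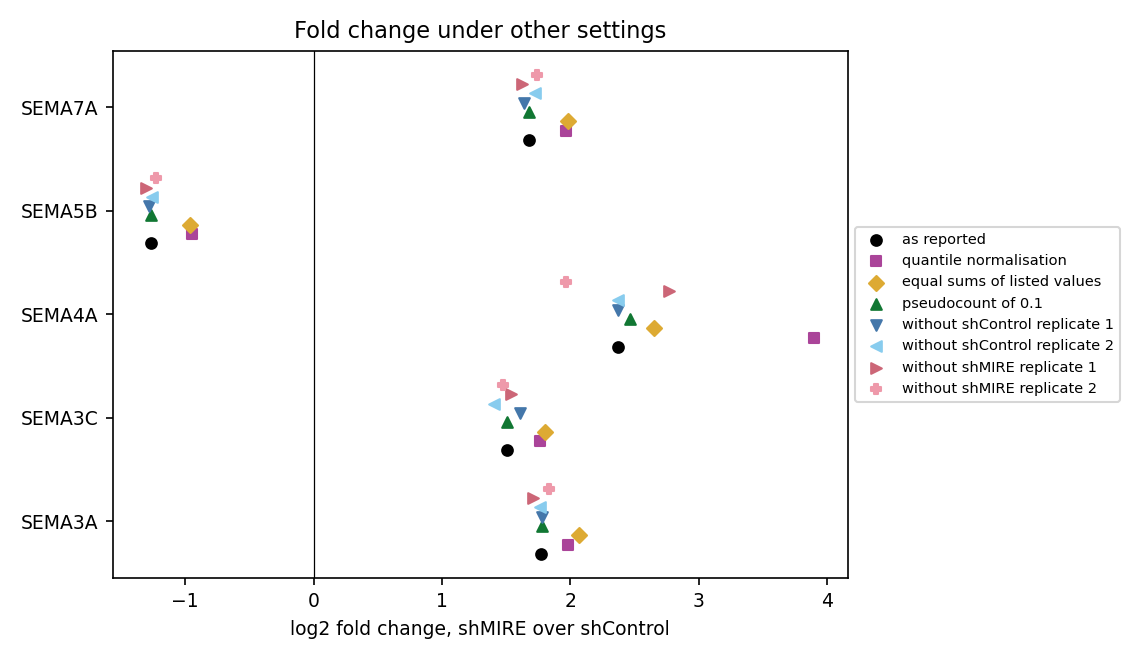
Log2 fold change (shMIRE over shControl) of each listed semaphorin as reported, with quantile normalisation, with libraries brought to equal sums, with a pseudocount of 0.1 and with each library left out. Each gene stays on its side of 0, which a left-out library or another pseudocount could not change, since its groups do not overlap. SEMA4A varies most, from 1.97 without shMIRE replicate 2 to 3.90 with quantile normalisation.

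Levels of different genes were compared per kb of exon, since a longer transcript gives more reads. In shControl the order was SEMA5B with 1045 ± 11.9 deposited units per kb, SEMA7A with 834 ± 36.5, SEMA3C with 705 ± 69.6, SEMA3A with 11.5 ± 0.08 and SEMA4A with 1.47 in both libraries (SD, n = 2). In shMIRE it was SEMA7A with 2674 ± 157, SEMA3C with 1994 ± 62.3, SEMA5B with 434 ± 16.2, SEMA3A with 39.4 ± 2.41 and SEMA4A with 8.50 ± 3.32. SEMA5B was highest in shControl and fell behind SEMA7A and SEMA3C in shMIRE. No neighbours in either order overlapped in their libraries, although in shControl the highest SEMA3C library (754) came close to the lowest SEMA7A library (808). When length was taken from the longest protein-coding transcript, the order was the same in both groups, but SEMA3C (794 to 914 per kb) and SEMA7A (909 to 967 per kb) overlapped in shControl.

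**Figure D4:**
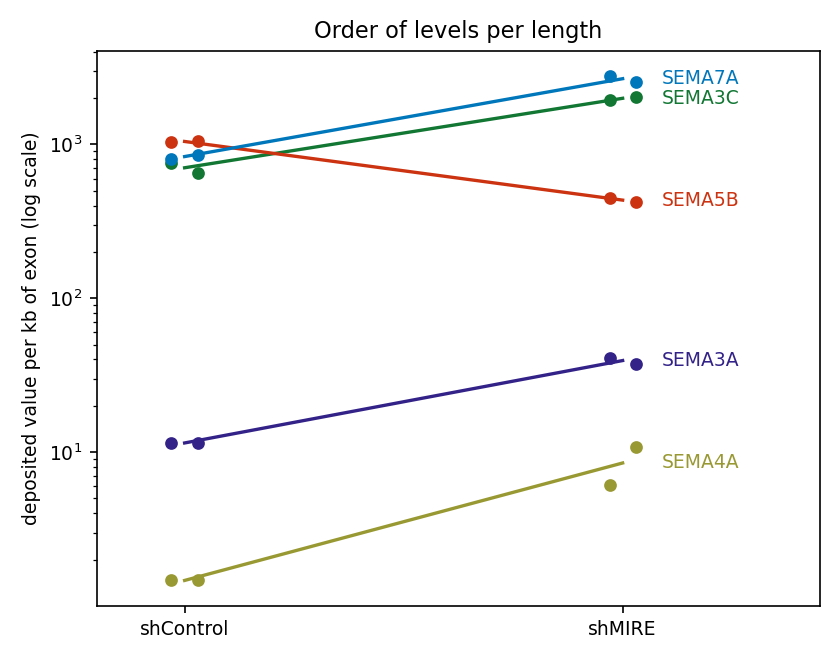
Deposited value per kb of exon (log axis) of the 5 listed semaphorins in shControl and shMIRE, where points are libraries and lines join the group means. SEMA5B starts highest at 1045 per kb and ends below SEMA7A and SEMA3C at 434, while the lines of the other members rise.

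The make-up of the listed semaphorin RNA shifted accordingly. Of the summed value per kb over the 5 genes, SEMA5B made up 39.7% and 40.8% in the shControl libraries and 8.53% and 8.34% in the shMIRE libraries. SEMA7A went from 30.9% and 33.3% to 53.3% and 50.5%, and SEMA3C from 28.9% and 25.4% to 37.3% and 40.2%. SEMA3A reached at most 0.79% and SEMA4A at most 0.21% in any library. Without length correction the 5 values summed to 16744 and 16465 in shControl and to 27029 and 26542 in shMIRE, 1.61-fold more. Per kb of exon the sum was 1.98-fold higher in shMIRE. The shares cover listed members only and depend on the length used, here that of all exons. With the longest protein-coding transcript, SEMA5B stood at 1804 per kb in shControl and 750 in shMIRE. By that length SEMA7A stood at 938 and 3009.5, and SEMA3C at 854 and 2416. Shares by that length were not calculated.

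The receptors were almost absent from the tables. Of 9 plexins and 2 neuropilins, only PLXNA4 was listed, and the others were not analysed here. PLXNA4 (ENSG00000221866, chromosome 7, 132123332 to 132648688, minus strand) encodes an A-type plexin that serves as a receptor for class 3 semaphorins with a neuropilin and directly for class 6 semaphorins. Each shControl library held 7, and the shMIRE libraries held 80 and 61. Both shMIRE values were higher, 10.1-fold in the means (70.5 ± 13.4 in shMIRE, SD, n = 2), and the log2 fold change was 3.15 with a standard error of 0.37 (limma adjusted p = 9.6e-04). With quantile normalisation it was 4.76.

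Further genes of semaphorin signalling came from lists of 75 co-receptors, effectors, collapsin response mediator proteins, MICAL family members and proteases. Of these 75 genes 12 were listed, 3 called higher and 9 called lower, where 38.5% and 59.0% of all listed genes were. Their median log2 fold change was -1.20, beside -1.16 over all listed genes. The 5 listed genes of the co-receptor list, of 23, were called lower, the call that 59.0% of all listed genes had. This list, which also takes in receptor kinases and proteoglycans, was chosen with earlier results of these data known. Of the listed integrin genes outside it, ITGA2, ITGA5, ITGAM, ITGB2 and ITGB3 were called higher, while ITGA4 had a lower mean without a call. ITGAV, the integrin alpha V subunit, fell from 6533 and 5344 in shControl to 2528 and 2612 in shMIRE, CSPG4, a membrane proteoglycan, fell 2.31-fold and L1CAM, an adhesion molecule that complexes with neuropilin-1, fell 2.22-fold. The VEGF receptor gene FLT4 fell 3.98-fold, while FLT1 had 3 and 11 in shControl and 0 in each shMIRE library (limma adjusted p = 0.0102, and 0.538 with quantile normalisation). Of 35 cytoplasmic effectors of plexins, 0 were listed.

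The collapsin response mediator proteins, cytosolic phosphoproteins that relay SEMA3A signals to microtubules, moved both ways. DPYSL3 fell from 19515 and 17780 in shControl to 5664 and 5456 in shMIRE, 3.35-fold, and DPYSL4 went from 32 and 47 to a listed 0 in each shMIRE library. CRMP1 rose 2.01-fold, from 965 ± 36.1 in shControl. MICAL2, of the family of actin-oxidising enzymes that act downstream of plexins in fly, rose from 23432 and 21686 in shControl to 47420 and 48945 in shMIRE, 2.14-fold. Among 7 proteases that process semaphorins or other membrane proteins, the proprotein convertase genes PCSK6 and PCSK7 fell 2.41-fold and 2.23-fold, and the membrane metalloprotease gene MMP14 rose 2.29-fold. Calls of the lower genes L1CAM, FLT4, FLT1 and PCSK6 were lost when single libraries were left out, and over plexins, neuropilins and these 75 genes the 9 lower calls were 5 without shMIRE replicate 1.

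Other guidance families were listed in part as well. Of 41 genes of the slit, netrin and ephrin systems and their receptors, 6 were listed, 2 called higher and 4 called lower, a split close to the 38.5% and 59.0% of all listed genes. ROBO4, an endothelial slit receptor family member, rose 5.48-fold, from 40 and 48 to 241 and 241, and SLIT2, a secreted ligand, fell 2.32-fold from 575 ± 103 in shControl (SD, n = 2). Without shMIRE replicate 1 the call of SLIT2 was lost (limma adjusted p = 0.0581), and the calls of EFNB3, an ephrin, and UNC5C, a netrin receptor, were lost without shControl replicate 1 (0.0899 and 0.153) or 2 (0.105 and 0.160). The ephrin receptor gene EPHA5 rose from 18 and 5 to 63 and 57, although not without shMIRE replicate 1 or 2 (limma adjusted p = 0.148 and 0.132), and EPHA3 fell from 14 and 17 to a listed 0.

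**Figure D5:**
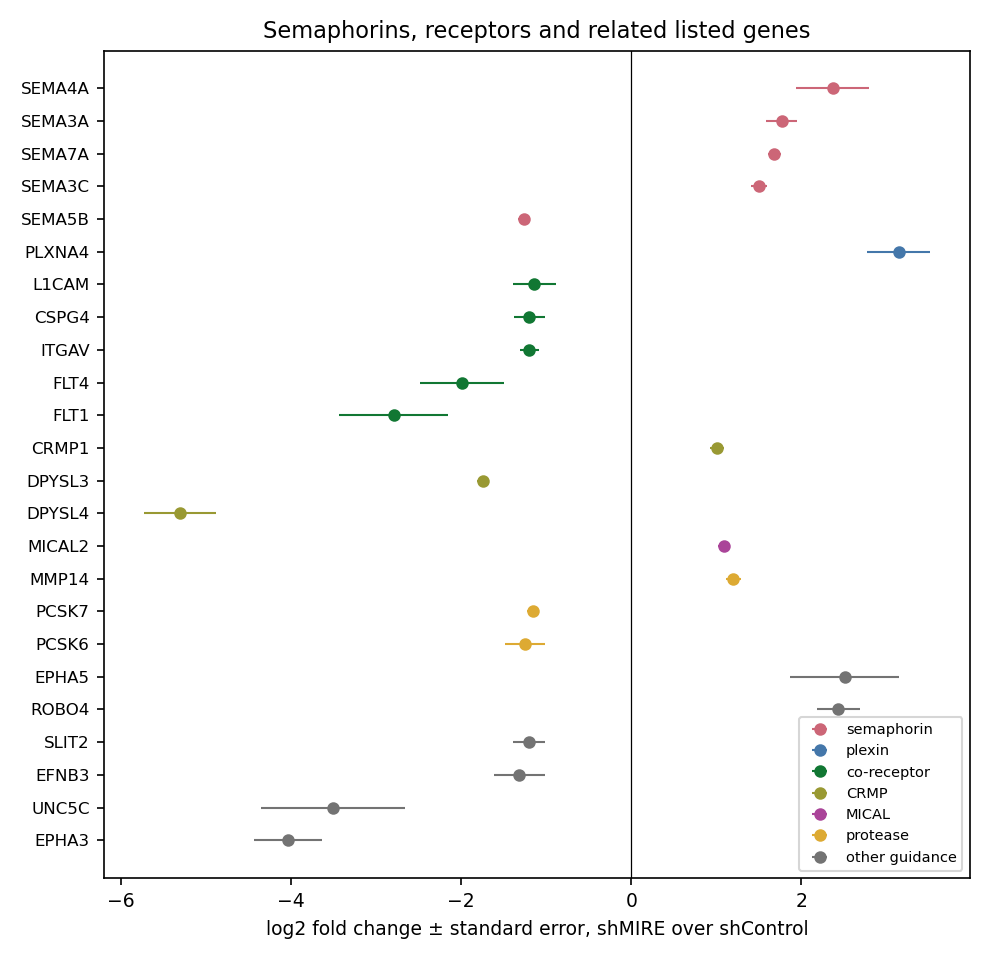
Log2 fold change with its standard error (limma, shMIRE over shControl, n = 2 per group) of the listed semaphorins, the listed plexin and related listed genes. The related genes come from the co-receptor, collapsin response mediator protein, MICAL, protease and other guidance lists. Of the semaphorins 4 lie right of 0 and SEMA5B left of it, and the 5 listed genes of the co-receptor list lie left of 0. Of all listed genes, 38.5% were called higher and 59.0% lower.

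Some markers of other cell types were listed as well, and by the limit of the tables a listed marker had to differ between the groups. Markers outside the tables were not analysed here, and the part of these cell types in the semaphorin values was not tested. Listed were 1 of 6 leukocyte markers (summed value 53 to 73 in shControl and 146 to 155 in shMIRE), 2 of 6 endothelial markers (43 to 59 and 241), 2 of 5 fibroblast markers (1274 to 1328 and 4095 to 4414) and 1 of 4 markers of neurons and glia (131 to 145 and 66 to 69). The endothelial and fibroblast sums each join a marker that was called higher and one called lower. ROBO4 went from 40 and 48 to 241 in each shMIRE library while FLT1 was at 0 in both. COL1A1 went from 1261 and 1290 to 4407 and 4095, while PDPN went from 13 and 38 to 7 and 0 (limma adjusted p = 0.0482). The PDPN call was lost with quantile normalisation (0.195), with equal sums (0.0502), with a pseudocount of 0.1 (0.0935), without the intensity trend (0.0932) and when either shControl library (0.197 and 0.355) or the second of shMIRE (0.234) was left out.

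For each semaphorin the listed gene with the most similar pattern over the 4 libraries was found by Euclidean distance between log2(value + 1) centred on the gene's mean. SEMA3A was closest to COL1A1, a collagen I chain (distance 0.049), SEMA3C to GNPDA1, a glucosamine phosphate deaminase (0.065), and SEMA7A to KIF26B, a kinesin family member (0.031). SEMA5B was closest to DGCR2 (0.018) and SEMA4A to the TNF family ligand gene TNFSF4, at a wider distance of 0.23. The tenth closest gene was at 0.068 for SEMA5B, at 0.135 for SEMA3C and SEMA7A, at 0.154 for SEMA3A and at 0.52 for SEMA4A.

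The 3′ UTRs were searched for the heptamer GCTGTGT on the transcript strand because it is more frequent among listed genes lower in shMIRE, an earlier observation from these data. In the longest annotated 3′ UTR of each gene (GENCODE 29) it was present in 41.1% of 704 lower genes, in 18.3% of 459 higher genes and in 18.1% of all 19071 genes with such a UTR. Of the 5 semaphorins only SEMA7A, which rose, held it, and SEMA5B, the member that fell, did not hold it in any of its 7 annotated 3′ UTRs. Of 13 lower genes among the receptor, pathway and other guidance genes 4 held it, and of 6 higher ones 0 did. With all annotated 3′ UTRs these counts were 6 of 13 and 1 of 6, the latter being PLXNA4. The site of SEMA7A, the first of 2 in ITGAV and that of CSPG4 are shown for comparison, with the heptamer in capitals. ITGAV and CSPG4 were taken from the co-receptor list. In that order the sites lie at chr15:74409391-74409420 (minus strand), chr2:186678831-186678860 (plus strand) and chr15:75674602-75674631 (minus strand) of GRCh38.
SEMA7A: gcccttctccgGCTGTGTctggccacccag
ITGAV: ttgactattttGCTGTGTtttaaaaatgat
CSPG4: ggctctggacaGCTGTGTggtgtttgtgtc
The 3 printed sites share the heptamer, SEMA7A rose, and ITGAV and CSPG4 fell.

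RefSeq promoter windows, 250 bases before to 50 after an annotated start on GRCh38.p14, were available for SEMA3C, SEMA4A, SEMA5B and SEMA7A. They were searched on both strands for ACGTG, the core of the site of hypoxia-inducible factors, for TGANTCA, the AP-1 site, and for TATAAA, the TATA box. The 3 motifs were present in 21.4%, 7.71% and 11.5% of all 35116 windows. Each of the semaphorin genes had more than 1 window and some of these overlapped, so a count over them cannot be set directly beside these percentages. Among the semaphorin windows there was 1 match in all, so no motifs overlapped there. It was an ACGTG in the second of the SEMA7A windows, at chr15:74433655-74433954 (minus strand). That window lies wholly within the annotated gene (74409289 to 74433958), so the match is downstream of the first annotated start. The other SEMA7A window, which holds that first start, had 0 matches. The window with the match is shown, with the match in capitals.
SEMA7A: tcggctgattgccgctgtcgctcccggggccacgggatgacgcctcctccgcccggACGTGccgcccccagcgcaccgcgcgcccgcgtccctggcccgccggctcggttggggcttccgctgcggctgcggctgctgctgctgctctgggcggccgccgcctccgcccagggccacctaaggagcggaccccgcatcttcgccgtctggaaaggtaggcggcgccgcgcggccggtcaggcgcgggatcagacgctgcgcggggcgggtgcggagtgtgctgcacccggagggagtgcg
This window was 77.3% G and C, beside a median of 58.7% over all windows. The windows of SEMA3C differed more from each other, with 36.0% G and C in one window and 75.7% in the other, and those of SEMA5B ranged from 42.0% to 74.7%. The deposited values are per gene, so which start was used in these cells was not analysed here.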

How the data were processed

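Polyadenylated RNA of 4 RCC4 libraries (2 shControl, 2 shMIRE) was sequenced. The submitters' processing notes name build hg38, DESeq2 1.20.0, HISAT2 2.0.5 and featureCounts 1.5.0-p3 without saying what each was used for. The authors deposited a whole number per gene, handled here as a score: a read count that looks already scaled and rounded, since the ratio of group means ended at 2.00 in both directions (2 genes lay just under 2) and the median ratio of replicates was 1.02 in shControl and 1.01 in shMIRE. Listed sums per library are in the report; without library depth, no counting interval is given.

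Symbols were matched for 1175 of 1176 IDs. Groups were compared across all 1176 genes with limma 3.58.1 (R 4.3.3, intensity trend) on log2(value + 1), two-sided, for genes with a mean above 1 (all passed), with Benjamini-Hochberg adjustment over all genes and a threshold of 0.05. On that scale the change of low genes is understated. Folds are ratios of group means. The fit was also run on simulated data in which most genes did not change. The listed genes were chosen for a difference, so that run gives the calls here no weight. Positions, exon lengths and 3′ UTRs (of at least 20 bases, after the stop codon) came from GENCODE 29, in which no exon of another gene overlaps an exon of a listed semaphorin. Named were all listed semaphorins, plexins and neuropilins, the listed genes of the pathway lists and the nearest pattern per member. Neighbours within 1000000 bp are named as well. Members, lists and the heptamer were chosen with earlier results of these data known. Alternatives were quantile normalisation, equal sums of the listed values, no intensity trend, other filters, a pseudocount of 0.1, a replicate block, each library left out, and a threshold of 0.01.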

Additional observations from a re-analysis of the deposited data

How the results depend on the processing

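All 5 semaphorins kept their direction under every alternative run, and SEMA3A, SEMA3C, SEMA5B and SEMA7A kept their call as well. The kept direction has little weight, since the values of the groups did not overlap in any of the 5. Leaving out a library or changing the filter, trend, block or pseudocount could therefore not reverse it. SEMA4A lost its call without shControl replicate 1 or 2 (log2 fold change 2.37 in both, limma adjusted p = 0.0679 and 0.0695), and its log2 fold change ranged from 1.97 to 2.77 with 1 library left out. Those fits take the spread of a group left with 1 library from the other group. The lower calls among receptors and pathway genes went from 9 to between 5 and 7 with 1 library left out, and the cause was not tested. The median log2 fold change of all listed genes moved up by 0.32 with quantile normalisation and by 0.30 with equal sums. Under them SEMA5B was at -0.95 and -0.96, against a median of -0.84 and -0.85, and SEMA7A at 1.97 and 1.98. Both settings bring the listed values of the libraries to a common level, although 60.6% of the listed genes had a lower mean in shMIRE. How much of the shift comes from this make-up of the list was not tested.

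With the replicate block, 4 semaphorins were again called higher and 1 lower, and 463 and 712 of all listed genes, beside 453 and 694 without it. Libraries with the same replicate number barely deviated together (correlation across genes 0.0321), so the number was not treated as a pairing. Leaving out 1 library gave 345 to 360 higher and 467 to 553 lower calls over all listed genes. Levels per kb rose in all 5 genes when the longest protein-coding transcript set the length. With all annotated 3′ UTRs, 1 semaphorin again held the heptamer, and 6 of 13 lower and 1 of 6 higher context genes did, beside 4 and 0 with the longest UTR.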
